A study of Sus scrofa with 12 samples.

Results

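The genes described here belong to developmental transcription factor families, measured in the endometrium of 12 sows on Day 14 after insemination. They were chosen by name from the platform's gene symbols: HOX and MSX homeobox genes, FOX, GATA, SOX, KLF, CEBP, ETS, RUNX and ID genes and orphan or steroid receptors with an NR symbol, with GATA3 left out. That gave 52 of the 6765 genes that had a probe set with exactly 1 symbol, carried by 81 probe sets, and each gene was read from its brightest probe set, by the mean of the 12 arrays. The rule itself used no measured difference, but it was set with earlier results of these data known. There were 7 HOX and MSX genes, 10 FOX, 3 GATA, 3 SOX, 8 KLF, 4 CEBP, 4 ID and 11 NR genes, together with ETS2 and RUNX1T1. The last matched by its symbol but is a corepressor and not a RUNX protein. HOXA10, HOXA11, HOXA13, MSX2, SOX4, SOX17, KLF5, NR4A1, ETS1 and RUNX1 were not analysed here.

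The 6 pregnant sows were 3 Landrace and 3 Yorkshire, and the 6 non-pregnant sows, also 3 of each breed, had been inseminated with inactivated semen. In all of them both uterine horns were rinsed before endometrium without its muscle layer was cut from 3 stretches of each horn. The RNA of each sow was read on 1 Affymetrix porcine array, and values are log2 expression per probe set. The tissue holds epithelium, glands, stroma, vessels and leukocytes together, so more or fewer cells of a type and more or less RNA per cell cannot be told apart. All 10 measured epithelial and all 8 measured stromal markers exceeded the lower quartile of at least 1 array.

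These families direct the patterning and the hormone response of the uterus. HOX and MSX genes lay out the reproductive tract and mark the receptive endometrium in the mouse, FOXA2 is a factor of uterine glands, and GATA2, NR2F2, FOXO1 and CEBPB act with progesterone in stroma and decidua in mouse and human. ID proteins lack a DNA-binding region and hold basic helix-loop-helix factors away from DNA, and several KLF proteins bind GC-rich promoters and work beside steroid receptors.

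Sows 7 and 12 stood apart. Non-pregnant sow 7 (Landrace) lay at 20.4 on the first and 43.5 on the second principal component, which held 36.8% and 17.3% of the variance, and pregnant sow 12 (Yorkshire) correlated most with non-pregnant sow 11. Pregnant sow 8 (Landrace) likewise correlated most with a non-pregnant sow, sow 5, at 0.983, against 0.992 for sow 12 with sow 11. The summed level of 7 measured leukocyte markers was 11.62 in sow 7 and 8.76 to 9.17 in the other sows, on the log2 scale. The summed level of 6 measured trophoblast markers was 12.71 in pregnant sow 10 and 8.83 in pregnant sow 6, against 7.23 to 7.71 in the non-pregnant sows. It was 7.35 to 7.56 in the other pregnant sows. Of these markers IFNG varied most among pregnant sows, with an SD of 3.54. RNA integrity was read from the GAPDH controls of the array, whose mean 3' minus 5' signal was 0.45 ± 0.05 in Landrace and 0.68 ± 0.10 in Yorkshire sows (SD over 6 sows per breed). That breed difference of -0.23 had an exact permutation p = 0.00216, two-sided, the smallest that 6 against 6 can give.

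The first comparison asked which of these genes differed with pregnancy. KLF9, KLF15 and FOXP1 were higher in pregnant sows, and ID2 and NR2F6 were lower (limma, adjusted p under 0.05 over 23999 probe sets). These were 5 of 52 genes, 3 higher and 2 lower, or 9.62%. Over all probe sets 7.88% were called, 3.95% higher and 3.94% lower, and over 1 probe set per named gene 12.1%, so the share among the transcription factors was near the background. The median difference of the 52 genes was 0.12 on the log2 scale, against 0.01 over all probe sets and -0.03 over the named genes. It was above 0 for 36 of the 52 (69.2%), for 52.8% of all probe sets and for 44.3% of the named genes.

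**Figure D1:**
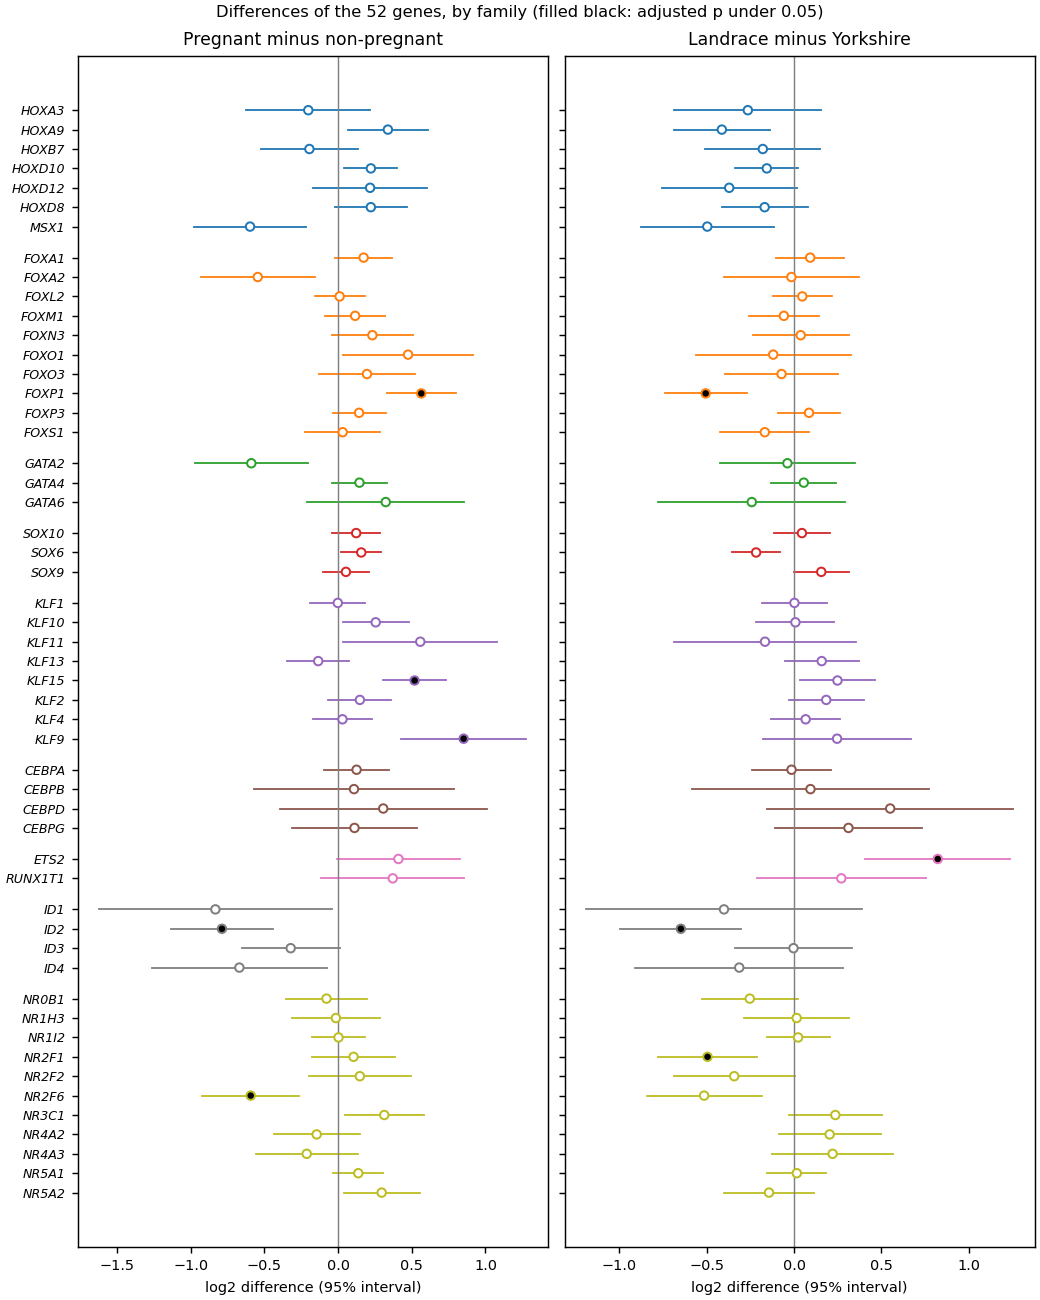
Log2 difference (dots) with its 95% interval (lines) for each of the 52 genes, pregnant minus non-pregnant on the left and Landrace minus Yorkshire on the right, coloured by family; black dots had an adjusted p under 0.05. KLF9, KLF15 and FOXP1 lie right of 0 and ID2 and NR2F6 left of it for pregnancy, and all 4 ID genes lie left of 0 in the left panel.

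Among the 8 KLF genes 2 rose with pregnancy and none fell. KLF9, known in uterine cells as a partner of the progesterone receptor, read 9.70, 9.21 and 9.04 in pregnant Landrace sows 6, 8 and 10, against 8.39, 8.89 and 7.81 in non-pregnant Landrace sows 5, 7 and 9. In Yorkshire it read 9.39, 8.98 and 8.54 in pregnant sows 2, 4 and 12, against 8.41, 7.97 and 8.28 in non-pregnant sows 1, 3 and 11. Neither breed showed any overlap, although pregnant sow 12 (Yorkshire) lay below non-pregnant sow 7 (Landrace). KLF9 averaged 9.14 ± 0.40 in the pregnant group and 8.29 ± 0.38 in the non-pregnant group (SD, n = 6 sows each, as for all means below), a difference of 0.85 ± 0.20 (SE, adjusted p = 0.0226) or 1.80-fold. Omitting pregnant sow 2 or 6 or non-pregnant sow 3 ended the call (highest adjusted p 0.0570). A second, dimmer KLF9 probe set differed by 0.17 (adjusted p = 0.122).

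KLF15, which in mouse uterine epithelium is known to restrain DNA replication genes, read 8.41, 8.42 and 8.63 in pregnant Landrace sows, against 7.92, 7.65 and 7.76 in non-pregnant Landrace sows. Pregnant Yorkshire sows had 8.16, 7.86 and 8.12, against 7.62, 7.90 and 7.63 in non-pregnant Yorkshire sows. The groups were apart in Landrace, while pregnant sow 4 lay just below non-pregnant sow 3 in Yorkshire. KLF15 averaged 8.27 ± 0.27 in pregnant and 7.75 ± 0.14 in non-pregnant sows, a difference of 0.52 ± 0.10 (SE, adjusted p = 0.0119), and the call survived the omission of any single sow. It was also the 1 gene of the 52 called within Landrace alone (0.71, adjusted p = 0.0262), where 1.03% of all probe sets were called. Within Yorkshire its difference was 0.33 (adjusted p = 0.234), and the difference between breeds was not called (interaction 0.38, unadjusted p = 0.0505).

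KLF10 and KLF11, related repressors, differed by 0.25 and 0.56 (adjusted p = 0.154 and 0.184, with 0.0485 for KLF10 when pregnant sow 8 was omitted). KLF4, a factor of epithelial differentiation, differed by 0.03 (adjusted p = 0.894), with a 95% interval from -0.17 to 0.23. KLF1, KLF2 and KLF13 lay between -0.14 and 0.15.

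FOXP1, a forkhead repressor, read 7.90, 7.40 and 7.68 in pregnant Landrace sows, against 7.04, 7.08 and 6.82 in non-pregnant Landrace sows. Its values were 8.20, 8.03 and 7.92 in pregnant Yorkshire sows, against 7.68, 7.35 and 7.77 in non-pregnant Yorkshire sows. Both factors of the design showed in this 1 gene: pregnant lay above non-pregnant in each breed, and Landrace below Yorkshire in each pregnancy group, with no overlap in any of these 4 settings. FOXP1 averaged 7.86 ± 0.28 in pregnant and 7.29 ± 0.38 in non-pregnant sows, a difference of 0.56 ± 0.11 (SE, adjusted p = 0.0119) or 1.48-fold. With single sows omitted the adjusted p stayed between 0.00760 and 0.0330, but without breed in the fit it was 0.0860, which ended the call.

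Of the other 9 FOX genes none was called. FOXA2 averaged 9.47 ± 0.40 in pregnant and 10.01 ± 0.24 in non-pregnant sows (difference -0.55 ± 0.18, adjusted p = 0.0828), and a second probe set differed by -0.36 (adjusted p = 0.117). It was called when pregnant sow 8 was omitted (adjusted p = 0.0182). FOXO1, a factor of decidualisation in human stroma, differed by 0.47 ± 0.20 (adjusted p = 0.182, and 0.0350 without non-pregnant sow 5). FOXL2, best known from the ovary, differed by 0.01 (adjusted p = 0.963). The remaining FOX genes lay between 0.03 and 0.23, among them FOXM1 of the cell cycle and FOXP3 of regulatory T cells. FOXA1 lay below the lower quartile on all 12 arrays, where values hold mostly background.

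All 4 ID genes had a lower mean in pregnant sows, with ID2 the 1 that passed the test. ID2 read 6.54, 6.58 and 6.70 in pregnant Landrace sows, against 6.96, 7.30 and 7.56 in non-pregnant Landrace sows. It read 7.03, 6.95 and 7.41 in pregnant Yorkshire sows, against 8.44, 8.19 and 7.50 in non-pregnant Yorkshire sows. Pregnant sows lay below non-pregnant sows of their own breed without overlap. ID2 averaged 6.87 ± 0.33 in pregnant and 7.66 ± 0.56 in non-pregnant sows, a difference of -0.79 ± 0.16 (SE, adjusted p = 0.0139), with adjusted p between 0.00897 and 0.0380 on omission of single sows and 0.0780 without breed in the fit.

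None of the other ID genes was called. ID1 had the largest SD within the 4 groups of the 52 genes, 0.71, and pregnant sows averaged 9.27 ± 0.84, against 10.11 ± 0.57 for non-pregnant sows (difference -0.83, adjusted p = 0.189). Its values were 9.78, 9.57 and 8.55 in pregnant Landrace sows and 8.34, 8.85 and 10.55 in pregnant Yorkshire sows, against 9.10, 9.81 and 10.12 in non-pregnant Landrace and 10.57, 10.46 and 10.56 in non-pregnant Yorkshire sows. Pregnant sow 12 thus read like the non-pregnant Yorkshire sows. ID3 differed by -0.32 (adjusted p = 0.233) and ID4 by -0.67 (adjusted p = 0.160), and pregnant sow 12 had the highest ID4 value of its group at 7.86.

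Among 11 NR genes NR2F6 fell with pregnancy and none rose. NR2F6, an orphan receptor of the COUP group that acts mostly as a repressor, read 7.76, 8.24 and 8.12 in pregnant Landrace sows, against 8.83, 8.16 and 9.05 in non-pregnant Landrace sows. The Yorkshire values were 8.38, 8.53 and 8.89 in pregnant sows, against 9.17, 9.30 and 8.98 in non-pregnant sows. Non-pregnant sow 7 fell among the pregnant Landrace sows, and in Yorkshire the groups did not overlap. NR2F6 averaged 8.32 ± 0.38 in pregnant and 8.91 ± 0.40 in non-pregnant sows, a difference of -0.59 ± 0.15 (SE, adjusted p = 0.0344). Omitting pregnant sow 2, 4, 6 or 10 or non-pregnant sow 1, 3, 5 or 9 ended the call (highest adjusted p 0.0839), and omitting non-pregnant sow 7 lowered the adjusted p to 0.0101. Without breed in the fit it was 0.119.

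NR3C1, the glucocorticoid receptor, and NR5A2, an orphan receptor needed for decidualisation in the mouse, differed by 0.31 and 0.30 (adjusted p = 0.144 and 0.152), and the 3 further NR3C1 and 4 further NR5A2 probe sets differed by 0.05 to 0.23. Most of the further NR5A2 probe sets and the dimmest of NR3C1 lay below the lower quartile on all 12 arrays. NR2F2 (COUP-TFII), a stromal factor of the uterus, differed by 0.15 (adjusted p = 0.653), with a 95% interval from -0.20 to 0.49. NR2F1 differed by 0.10 (adjusted p = 0.705). The remaining members, NR0B1, NR1H3, NR1I2, NR4A2, NR4A3 and NR5A1, lay between -0.21 and 0.14.

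The homeobox and GATA genes held the values closest to the threshold. MSX1, which in the mouse uterus falls as receptivity closes, averaged 9.14 ± 0.41 in pregnant and 9.74 ± 0.44 in non-pregnant sows (difference -0.60 ± 0.17, adjusted p = 0.0569), and a second, dimmer probe set differed by -0.02 (adjusted p = 0.893). GATA2 averaged 8.47 ± 0.35 in pregnant and 9.06 ± 0.30 in non-pregnant sows (difference -0.59 ± 0.18, adjusted p = 0.0632), with -0.35 at its second probe set (adjusted p = 0.129). HOXA9 and HOXD10 differed by 0.34 and 0.22 (adjusted p = 0.124 and 0.123), and HOXD8 and HOXD12 by 0.22 each. HOXA3 and HOXB7 differed by -0.20 each, and the second HOXB7 probe set by -0.52 (adjusted p = 0.0734). GATA4 and GATA6 differed by 0.14 and 0.32 (adjusted p = 0.349 and 0.493).

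Neither the SOX, the CEBP nor the ETS and RUNX genes were called for pregnancy. SOX6 and SOX10 differed by 0.16 and 0.12 (adjusted p = 0.150 and 0.363), and SOX9, a factor of gland epithelium, by 0.05 (adjusted p = 0.737). SOX6 and SOX9 lay below the lower quartile on all 12 arrays. CEBPA, CEBPB, CEBPD and CEBPG differed by 0.13, 0.11, 0.31 and 0.11 (adjusted p of 0.533 to 0.887). ETS2 differed by 0.41 (adjusted p = 0.222) and RUNX1T1 by 0.37 (adjusted p = 0.358).

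**Figure D2:**
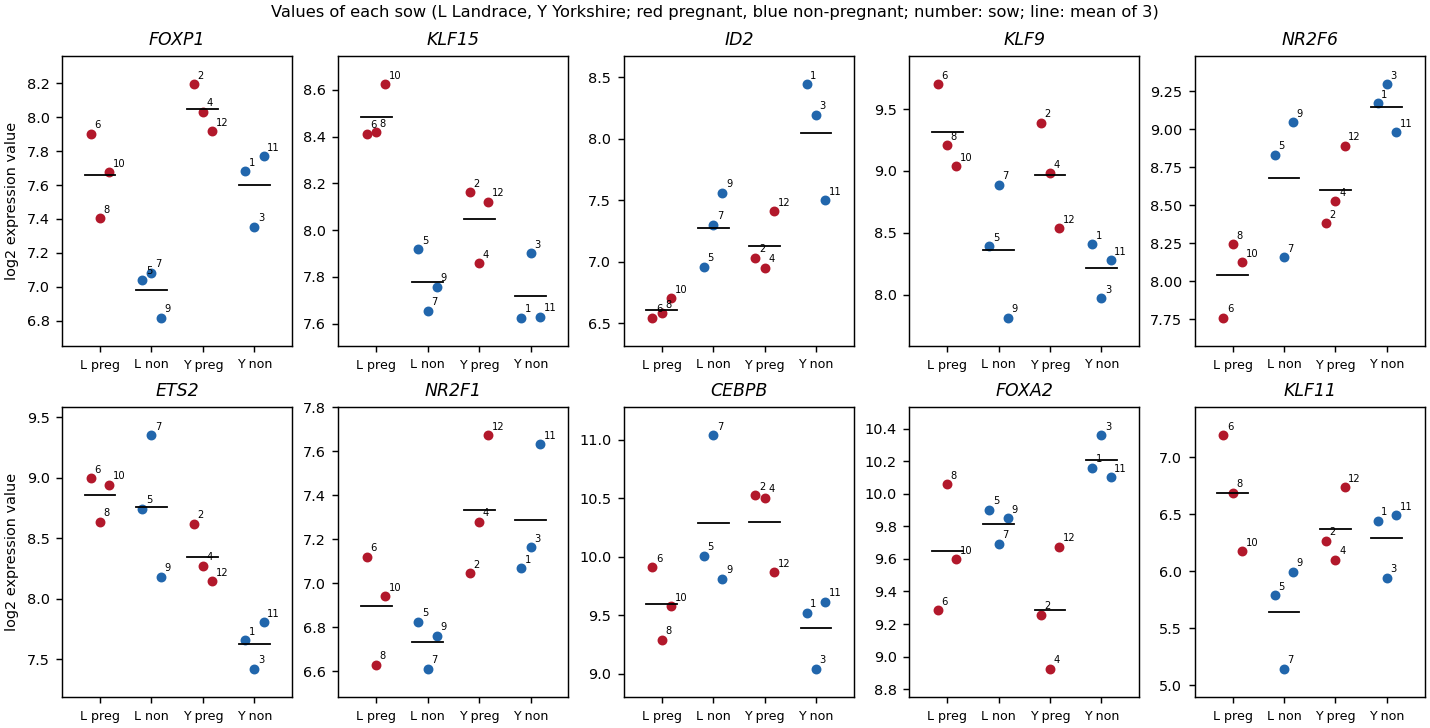
Log2 expression value (y axis) of each sow for the 7 genes called for pregnancy or breed and the 3 with the smallest interaction p, in pregnant and non-pregnant sows of each breed; bars are means of 3 sows. FOXP1, KLF9 and ID2 show no overlap between pregnant and non-pregnant sows within either breed, and for CEBPB pregnant sows lie below non-pregnant ones in Landrace except for sow 6, and above them in Yorkshire.

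Taken over both breeds, no gene of the 52 had pregnant and non-pregnant sows fully apart, against 2.70% of all probe sets. Within both breeds at once, FOXP1, KLF9 and ID2 did, which is 5.77% of the genes, against 6.04% of all probe sets. The further probe sets of a gene mostly pointed the same way: 20 genes had 29 further probe sets, and 26 had the sign of the brightest one for pregnancy. By limma 0 were called and 6 had an unadjusted p under 0.05, beside 7.88% and 23.2% of all probe sets. Of the 29, 9 lay below the lower quartile on all arrays.

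**Figure D3:**
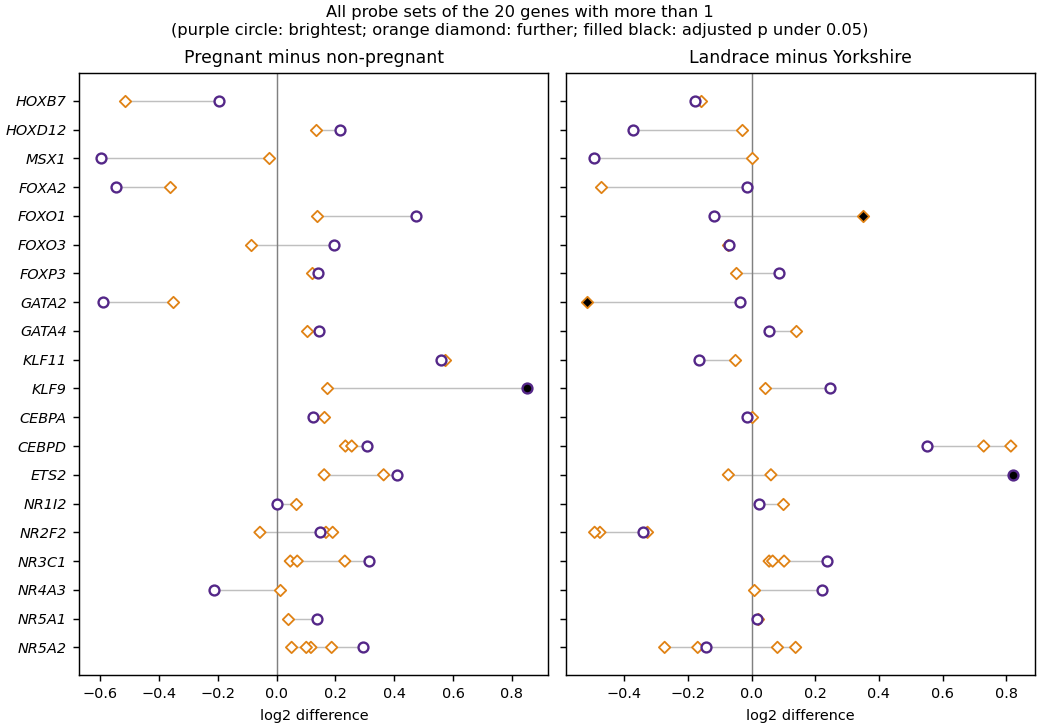
Log2 differences of every probe set of the 20 genes that had more than 1, for pregnancy on the left and breed on the right; purple circles are the brightest probe set, orange diamonds the further ones, and black fill an adjusted p under 0.05. The ETS2 circle for breed, at 0.82, lies far from both of its diamonds at -0.07 and 0.06, and FOXO1 and GATA2 have a called diamond away from their circle.

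Leaving out sows 7 and 12 together, a step chosen after seeing the data, changed how many genes passed. Then 12 of 52 were called for pregnancy, 5 higher and 7 lower, or 23.1%, beside 13.4% of all probe sets and 19.2% of named genes. The 5 genes above were among them. CEBPD (0.69, adjusted p = 0.0448) and ETS2 (0.61, 0.0241) were added above 0, and FOXA2 (-0.67, 0.0439), GATA2 (-0.83, 0.00363), HOXA3 (-0.46, 0.0401), ID4 (-1.03, 0.0131) and MSX1 (-0.76, 0.0213) below 0. GATA2 and MSX1 also passed on omission of sow 7 or of sow 12 alone, MSX1 on omission of pregnant sow 8, and ETS2 on omission of sow 7 (adjusted p down to 0.0204, 0.0135 and 0.0262).

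Some markers of cell types were also called for pregnancy, beside 7.88% of all probe sets and 12.1% of named genes. Of 10 measured endothelial markers 7 rose and none fell, with a summed level of 10.71 to 11.31 in pregnant sows, against 10.00 to 10.69 in non-pregnant sows. Of 8 stromal markers 4 rose and 1 fell (13.81 to 14.39 in pregnant and 13.60 to 14.09 in non-pregnant sows), and of 10 epithelial markers 1 rose and 2 fell (13.15 to 13.80 in pregnant and 13.62 to 13.90 in non-pregnant sows). Of 6 smooth muscle markers 1 rose, and none of the leukocyte, trophoblast and proliferation markers was called. The part of these shifts in the differences of KLF9, KLF15, FOXP1, ID2 and NR2F6 was not tested.

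Of the partners and cofactors of these families, 16 of 36 listed genes were measured, and 3 rose and none fell with pregnancy. Over all probe sets 7.88% were called for pregnancy and 2.70% had no overlap. The median difference of the 16 was 0.06. MEIS2, a homeodomain cofactor of HOX proteins, averaged 7.63 ± 0.19 in pregnant and 7.14 ± 0.15 in non-pregnant sows (difference 0.49, adjusted p = 0.0130) with no overlap. The corepressor CTBP2 rose by 0.39 (adjusted p = 0.0184). The nuclear receptor coactivator PPARGC1A rose by 0.59 (adjusted p = 0.0476), and the call remained only on omission of pregnant sow 4 or 12 or non-pregnant sow 11 (highest adjusted p 0.110). LMO2, a bridging partner of GATA factors, differed by 0.50 (adjusted p = 0.109).

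Of receptors outside the NR symbols, 15 of 23 were measured and 1 fell, beside 7.88% of all probe sets called and 2.70% without overlap. ESR1, the oestrogen receptor alpha, averaged 6.98 ± 0.23 in pregnant and 7.56 ± 0.26 in non-pregnant sows without overlap (difference -0.58, adjusted p = 0.0257). Omitting pregnant sow 2, 6 or 10 or non-pregnant sow 5 or 9 ended the call (highest adjusted p 0.0654). PGR, the progesterone receptor, differed by -0.11 (adjusted p = 0.398). The retinoid receptors RARA, RARB, RXRA, RXRB and RXRG lay between -0.16 and 0.01. Of these, RARA and RXRG were below the lower quartile on all 12 arrays and RARB on 10. In all, 5 of the 15 measured receptors were below it on all 12 arrays, where values hold mostly background.

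The second comparison asked which genes differed between breeds, with pregnancy as a covariate. ETS2 was higher in Landrace sows, and FOXP1, ID2 and NR2F1 were lower, which is 4 of 52 genes or 7.69%. Over all probe sets 5.15% were called, 2.22% higher and 2.93% lower in Landrace, and over named genes 5.26%. The part in these differences of the GAPDH 3' minus 5' signal, which was lower in Landrace, was not tested. No gene of the 52 had the breeds fully apart over all sows, against 2.98% of all probe sets. Without sows 7 and 12, FOXP1 and ETS2 were called, beside 3.33% of all probe sets and 3.34% of named genes. Without pregnancy in the fit none of the 4 calls remained (adjusted p = 0.0633 for ETS2, 0.190 for FOXP1, 0.243 for ID2 and 0.0613 for NR2F1). The median breed difference of the 52 genes was -0.01, against 0.01 over all probe sets.

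FOXP1 averaged 7.32 ± 0.42 in Landrace and 7.83 ± 0.30 in Yorkshire sows, a difference of -0.51 ± 0.11 (SE, adjusted p = 0.0194), and the call survived the omission of any single sow. It was -0.39 within pregnant and -0.62 within non-pregnant sows. ID2 averaged 6.94 ± 0.41 in Landrace and 7.59 ± 0.61 in Yorkshire sows (difference -0.65 ± 0.16, adjusted p = 0.0365), and the call was lost on omission of pregnant sow 6, 8, 10 or 12 or non-pregnant sow 1, 3, 5 or 7 (highest adjusted p 0.0793) and of sows 7 and 12 together (0.124). FOXP1 and ID2 are thus the genes called in both comparisons. The signs of their pregnancy and breed differences put the lowest mean of FOXP1 in non-pregnant Landrace and that of ID2 in pregnant Landrace sows.

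NR2F1 (COUP-TFI), an orphan receptor, read 7.12, 6.63 and 6.94 in pregnant Landrace and 6.82, 6.61 and 6.76 in non-pregnant Landrace sows. Yorkshire sows had 7.04, 7.28 and 7.67 when pregnant and 7.07, 7.16 and 7.63 when not. Landrace lay lower in both pregnancy groups, with 1 overlapping pair among pregnant sows. The difference of -0.50 ± 0.13 was at the threshold (adjusted p = 0.0493), and the call remained only on omission of pregnant sow 2 or 6 (highest adjusted p otherwise 0.0953). Without sows 7 and 12 the difference was -0.38 (adjusted p = 0.164). The related NR2F2 differed by -0.34 (adjusted p = 0.253), with -0.33 to -0.49 at its further 3 probe sets.

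ETS2, an ETS factor downstream of RAS signalling, read 8.997, 8.64 and 8.94 in pregnant Landrace sows, against 8.62, 8.27 and 8.15 in pregnant Yorkshire sows. In non-pregnant sows it read 8.74, 9.35 and 8.18 in Landrace, against 7.66, 7.42 and 7.80 in Yorkshire. The breeds did not overlap in either pregnancy group, and the means were 8.81 ± 0.39 in Landrace and 7.99 ± 0.44 in Yorkshire sows (difference 0.82 ± 0.19, adjusted p = 0.0287). The call was lost on omission of pregnant sow 6, 10 or 12 or non-pregnant sow 1, 3, 5 or 11 (highest adjusted p 0.0648). The 2 further ETS2 probe sets differed by -0.07 and 0.06 (adjusted p = 0.876 and 0.851), so the breed difference rested on 1 of 3 probe sets, and the mean of all 3 was not called (0.27, adjusted p = 0.368). Further probe sets of FOXO1 (0.35, adjusted p = 0.0322) and GATA2 (-0.52, adjusted p = 0.0442) were called for breed where the brightest ones, at -0.12 and -0.04, were not (adjusted p = 0.801 and 0.937).

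All 7 HOX and MSX genes had a lower mean in Landrace, by -0.16 to -0.50, and none was called. The values nearest to the threshold were HOXA9 at -0.41 (adjusted p = 0.0817) and MSX1 at -0.50 (adjusted p = 0.129), and the second MSX1 probe set was at 0.0024. HOXA9 passed when pregnant sow 6 was omitted (adjusted p = 0.0332), and MSX1 and SOX6 when pregnant sow 8 was (0.0330 and 0.0498). Of the 8 KLF genes 7 lay above 0, with a range of -0.17 to 0.25, and none was called. Above 0 for breed were 48.1% of the 52 genes, 52.3% of all probe sets and 50.7% of named genes. NR2F6 differed by -0.51 (adjusted p = 0.0720, and 0.0422 without non-pregnant sow 9). SOX6 differed by -0.22 (adjusted p = 0.0671), with no overlap in either pregnancy group. Together FOXP1, ETS2 and SOX6 made 5.77% of genes with that separation, against 5.72% of all probe sets.

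Among partners NCOR1, a corepressor of nuclear receptors, and PPARGC1A were lower in Landrace by -0.41 (adjusted p = 0.0234) and -0.68 (adjusted p = 0.0340), and none of the 16 was higher. Among the other receptors PGR averaged 6.30 ± 0.14 in Landrace and 6.69 ± 0.10 in Yorkshire sows without overlap (difference -0.40, adjusted p = 0.00906). RXRB, a partner of many receptors, was also lower without overlap (-0.38, adjusted p = 0.0253). Over all probe sets 5.15% were called for breed and 2.98% had the breeds without overlap. The PGR call survived the omission of any single sow. That of NCOR1 was lost without sow 1, 5, 10 or 12 and that of RXRB without sow 1, 6, 11 or 12 (highest adjusted p 0.0545 and 0.0568). That of PPARGC1A remained only without sow 4, 8, 10 or 12 (highest adjusted p otherwise 0.0747). For these partners and receptors, too, the part of the GAPDH 3' minus 5' signal in the breed differences was not tested.

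**Figure D4:**
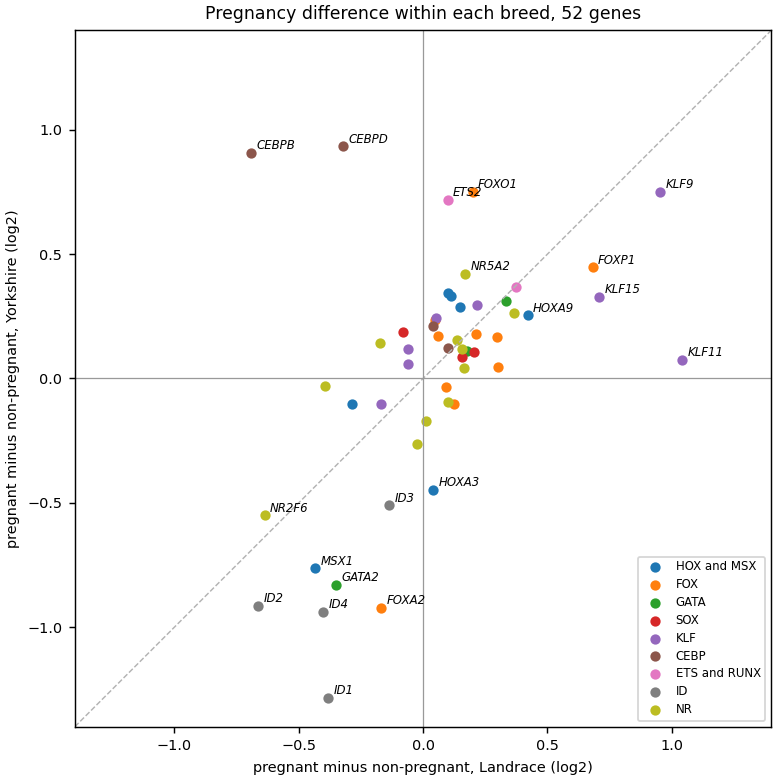
Pregnant minus non-pregnant log2 difference of each of the 52 genes in Landrace (x axis) and in Yorkshire sows (y axis), coloured by family; the dashed line marks equal differences. CEBPB lies at -0.69 in Landrace and 0.91 in Yorkshire, and KLF11 at 1.04 in Landrace and 0.07 in Yorkshire.

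The third comparison asked whether the pregnancy difference itself differed between the breeds. No gene of the 52 and no probe set of all 23999 was called for the interaction (limma, 0%). At an unadjusted p under 0.05 there were 4 of 52, CEBPB, CEBPD, FOXA2 and KLF11, or 7.69%, beside 4.01% of all probe sets. Within Yorkshire alone 0 of 52 genes and 0 probe sets were called. At an unadjusted p under 0.05 there were 17 of 52 genes in Yorkshire (32.7%), beside 15.3% of all probe sets and 21.7% of named genes, and 10 of 52 in Landrace (19.2%), beside 15.5% and 20.7%.

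CEBPB, a leucine zipper factor of decidualisation and inflammation, read 9.91, 9.29 and 9.58 in pregnant Landrace sows, against 10.01, 11.04 and 9.81 in non-pregnant Landrace sows. In Yorkshire it read 10.53, 10.50 and 9.87 in pregnant sows, against 9.52, 9.04 and 9.61 in non-pregnant sows. The differences pointed opposite ways, -0.69 in Landrace and 0.91 in Yorkshire, an interaction of -1.60 (unadjusted p = 0.00377, adjusted p = 1.00). It was -1.44 without sows 7 and 12 (adjusted p = 0.151) -1.22 without sow 7 alone, and -1.84 at the other end of the single omissions. The Landrace difference was -0.32 without sow 7. CEBPD, an acute phase factor of the same family, had -0.32 in Landrace and 0.93 in Yorkshire, an interaction of -1.25 (unadjusted p = 0.0467). Without sow 7 its Landrace difference turned to 0.24 and the interaction was -0.69 (unadjusted p = 0.0600), so the opposite directions of CEBPD rested on that sow. Other single omissions gave interactions of -1.60 (sow 9, unadjusted p = 0.0132) to -1.03 (sow 8, unadjusted p = 0.107). Non-pregnant sow 7, with the high leukocyte markers given above, held the highest value of both genes. The part of leukocytes in these values was not tested.

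FOXA2 read 9.28, 10.06 and 9.60 in pregnant Landrace sows, against 9.90, 9.69 and 9.85 in non-pregnant Landrace sows, which overlap. In Yorkshire pregnant sows had 9.26, 8.92 and 9.68, all below 10.16, 10.36 and 10.10 in non-pregnant sows. The interaction was 0.75 (unadjusted p = 0.0264), and 0.43 on the mean of both probe sets. KLF11 read 7.19, 6.69 and 6.17 in pregnant Landrace sows, against 5.79, 5.14 and 5.998 in non-pregnant Landrace sows. Its Yorkshire values overlapped, at 6.27, 6.10 and 6.74 in pregnant sows, against 6.44, 5.95 and 6.49 in non-pregnant sows, and the interaction was 0.97 (unadjusted p = 0.0370, and 0.0893 without sow 7). Without sows 7 and 12, the Yorkshire differences of CEBPB, CEBPD and FOXA2 were 1.12, 1.13 and -1.12 (adjusted p = 0.0119, 0.0131 and 0.0119). With all 12 sows, the limma interactions of CEBPB, CEBPD, FOXA2 and KLF11 each had an adjusted p of 0.9996.

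**Figure D5:**
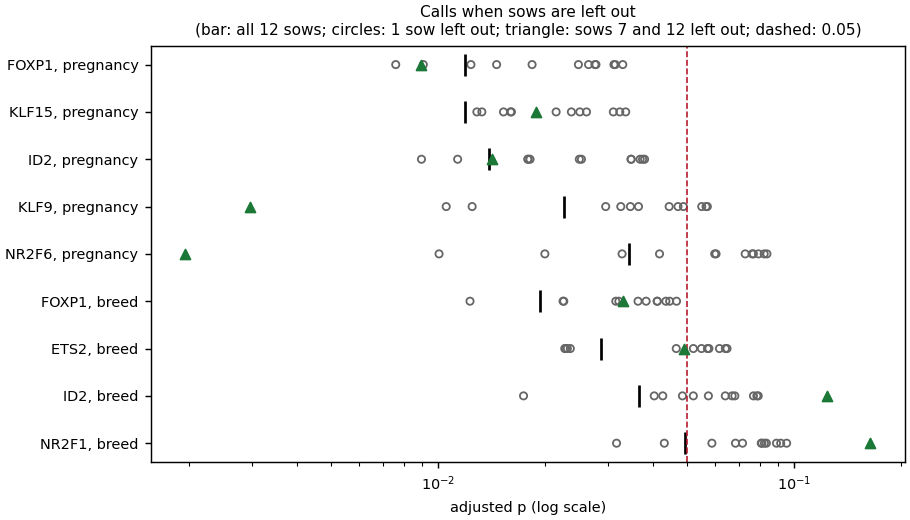
Adjusted p (log axis) of each called gene with all 12 sows (bar), with each sow left out in turn (circles) and with sows 7 and 12 left out (triangle); the dashed line is the threshold of 0.05. All circles of FOXP1, KLF15 and ID2 for pregnancy and of FOXP1 for breed lie left of the line, while those of KLF9, NR2F6, ETS2, ID2 for breed and NR2F1 fall on both sides.

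Within the 4 groups of breed and pregnancy, the median SD between sows was 0.25 over the 52 genes and 0.17 over all probe sets. ID1 (0.71), CEBPD (0.56), ID4 (0.55) and GATA6 (0.51) varied most, and SOX6 and SOX9 (0.08 each), both near background, least. Of the 52 genes, 46 were never below the lower quartile of an array, 3 were on all 12 arrays (FOXA1, SOX6 and SOX9) and 3 on some (GATA6, FOXP3 and NR4A3).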

How the data were processed

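The deposited values are log2 expression per probe set. RMA, affy and limma are named, without versions, in the submitters' processing notes, and the authors' columns have nearly equal distributions on all 12 arrays, with medians of 6.25 to 6.30. Differences are therefore relative to the other probe sets of an array, and low values hold mostly background, which shrinks differences. Arrays carry no counts, so the number of sows limits the precision. Of 24123 probe sets, 124 controls were left out. Symbols came from the platform annotation, and 51 of the 52 genes were found by identifier in RefSeq's Sscrofa11.1 table, with the same symbol.

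limma 3.58.1 (R 4.3.3; lmFit, eBayes, two-sided) was fitted to 23999 probe sets with Benjamini-Hochberg adjustment, with pregnancy and breed as additive terms (9 residual degrees of freedom), and with 4 groups for within-breed differences and the interaction (8). Summed marker levels are log2 of the summed linear values. Called genes, the 2 of smallest p in families with no call, the 3 of smallest interaction p and 19 measured genes of a list of 29 were named by rule. Other genes named were chosen after their values were seen. The members and lists were chosen with earlier results of these data known. The procedure was tested on simulated data. Alternatives were cyclic loess, median centring, a filter on dim probe sets, a trended robust prior, array weights, single-factor fits, a threshold of 0.01, the mean of a gene's probe sets, and leaving out sows. The labels describe 1 sow per array, and no pairs.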

Additional observations from a re-analysis of the deposited data

Results flagged for a closer look

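A value far from the rest of its pregnancy group, by Dixon's test at the 95% level, was found in 4 of 58 sets of 6 sows. Chance gives about 1 in 20. For CEBPD the 5 lower non-pregnant values spanned 8.53 to 9.38 and sow 7 had 10.94. For FOXO1 they spanned 8.78 to 9.05 and sow 5 had 9.77. GATA6 stood at 5.94 in pregnant sow 12, with 4.85 to 5.13 in the remainder of that group, and at 5.80 in non-pregnant sow 11, with 4.39 to 4.81 in its remainder. Sows 11 and 12 are both Yorkshire, and their arrays correlated most with each other.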

How the results depend on the processing

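With single-factor fits, which left KLF9 and KLF15 called and ended the calls of FOXP1, ID2 and NR2F6, 0 members fell for pregnancy and 0 and 0 were called higher and lower for breed, and 1165 and 786 probe sets in all were called for pregnancy and breed, against 1892 and 1236. At a threshold of 0.01, 0 members were called in any direction in either comparison, with 323 and 365 probe sets in all. Members that fell with pregnancy numbered 4 with dim probe sets left out and 6 with array weights, which called 3640 probe sets. With the mean of a gene's probe sets 0 members were higher in Landrace. Without sows 7 and 12, 5 members rose and 7 fell with pregnancy and 1 was lower in Landrace, among 3213 and 800 probe sets, and 29 probe sets were called for the interaction. Median centring gave 3 rises and 3 falls. Leaving out 1 sow gave 2 to 4 rises and 1 to 4 falls for pregnancy, 0 to 1 higher and 1 to 3 lower for breed and 0 to 0 for the interaction, among 951 to 2626, 820 to 1342 and 0 to 18 probe sets. Some uncalled differences changed sign: FOXL2 for pregnancy to -0.018 with cyclic loess and -0.0085 with median centring, NR2F1 to -0.011 without sows 7 and 12, FOXO1 for breed to 0.11 with the mean of probe sets, and GATA2 for breed to 0.059 with array weights and 0.20 without sows 7 and 12. When 1 sow was left out, FOXL2 ranged from -0.031 to 0.051, CEBPB from -0.059 to 0.36 and KLF4 from -0.011 to 0.081 for pregnancy, and GATA2 from -0.16 to 0.079 for breed. Within breeds, CEBPD in Landrace ranged from -0.66 to 0.24, FOXA2 in Landrace from -0.37 to 0.013 and KLF11 in Yorkshire from -0.11 to 0.21, and without sows 7 and 12 CEBPD in Landrace was 0.24 and KLF11 in Yorkshire -0.11. The cause was not tested. No paired analysis was possible because the groups share no replicate numbers and the labels name no pairs. Consecutive sow numbers join a pregnant and a non-pregnant sow of 1 breed, and whether they mark pairs is unknown.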

Other observations

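Pregnant sow 12 had the highest or lowest value of its group for 28 of the 52 genes and non-pregnant sow 7 for 25, against 10 to 21 for each of the other sows. Array weights were lowest for sow 7 (0.52), sow 12 (0.58) and sow 11 (0.61), and 0.75 to 1.72 for the others.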
